A study of Mus musculus with 24 samples.

Results

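The miR-34 family in mouse is made of miR-34a, which has its own gene, and of miR-34b and miR-34c, which lie next to each other on another chromosome. The 3 members were taken by name (mir-34a, mir-34b and mir-34c) from the deposited table of 510 miRNAs, of which 364 had at least 1 count and 237 passed the filter on low counts, all 3 members among them. Small RNA was sequenced from 24 mammary tissue samples. The 12 tumor samples came from MMTV-PyMT mice, F1 females on the FVB background heterozygous for a transgene of the polyoma middle T oncoprotein, at weeks 6 (hyperplasia), 8 (adenoma/MIN), 10 (early carcinoma) and 12 (late carcinoma), with 3 mice at each week. The 12 normal samples were mammary glands of age-matched FVB females without the transgene, again 3 at each week, and strain, sex and tissue were the same in all groups. The MMTV promoter drives the oncoprotein mainly in mammary epithelium, and a tumor sample is a bulk piece of tissue that also holds other cells. According to the study's methods, samples of the early stages still hold normal gland cells. For the carcinoma samples the same methods report mostly tumor cells by histology, with few stromal, muscle and inflammatory cells.

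miRNAs pair through their seed, bases 2 to 8 counted from the 5′ end, with sites in mRNAs and lower the output of those mRNAs. The miR-34 genes are among the best known direct targets of the transcription factor p53, which is activated by DNA damage and by oncogenes, and their products repress genes of the cell cycle and of cell survival such as Cdk4, Cdk6, Ccnd1, Met and Bcl2. miR-34a is the member found in most adult tissues, while miR-34b and miR-34c are made from 1 shared primary transcript. These 2 are most abundant in testis and in tissues with multiciliated cells, such as lung and oviduct. The miR-449 miRNAs carry the same seed and are known from multiciliated epithelium.

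The sequences, from RefSeq on build GRCm38.p6, are shown because all members share a seed and because miR-34b is closer in sequence to miR-34c than to miR-34a. In each line the capitals mark the seed GGCAGUG. The mature 5p form is given for miR-34a and miR-34b, and the hairpin for miR-34c.
miR-34a-5p (chr4:150068473-150068494, plus strand): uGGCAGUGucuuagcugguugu
miR-34b-5p (chr9:51103610-51103632, minus strand): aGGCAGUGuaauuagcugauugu
miR-34c hairpin (chr9:51103034-51103110, minus strand): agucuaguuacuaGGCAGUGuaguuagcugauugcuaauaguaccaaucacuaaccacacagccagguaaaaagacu
miR-449a-5p (chr13:113037549-113037570, plus strand): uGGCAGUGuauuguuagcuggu
miR-449c-5p (chr13:113036008-113036028, plus strand): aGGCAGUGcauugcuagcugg

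A mature 5p entry was matched in the RefSeq table for 2 of the 3 members, miR-34a and miR-34b, and for miR-449a and miR-449c, and not for miR-34c and miR-449b. Of the 1679 mature mouse entries in that table, 4 (0.238%) have GGCAGUG at bases 2 to 8, namely miR-34a-5p, miR-34b-5p, miR-449a-5p and miR-449c-5p, and the miR-34c hairpin also holds these bases. miR-34a-5p and miR-34b-5p were identical at 11 of 22 positions (50.0%) without gaps and at 19 of 23 (82.6%) with a gap of 1 base. miR-34b-5p and the best window of the miR-34c hairpin were identical at 21 of 23 positions (91.3%) and differed by A11G and U23C, with the base of miR-34b-5p first and positions counted from its 5′ end. Reads of the 5p arm of miR-34b and miR-34c thus differ at few bases. The 3p forms, counted under the same names, differ more, with 17 of 22 positions identical (77.3%). The alignment settings that decide how such reads were split are not given in the sources used here. The split of counts between these 2 miRNAs is therefore less certain than the count of miR-34a. In the mm9 annotation, the build named in the sample labels, the Mir34a hairpin lies on chromosome 4 at 149442563 to 149442664 and overlaps no other annotated gene. The Mir34c hairpin, at 50911139 to 50911215 on chromosome 9, and the Mir34b hairpin, at 50911667 to 50911750, are 451 bases apart on the minus strand, and neither overlaps another annotated gene. The Mir449 hairpins lie on chromosome 13 inside an intron of Cdc20b.

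Total counts ranged from 1032241 to 3931375 per library, so that 3 counts corresponded to 0.763 to 2.91 CPM (counts scaled to the library total) before normalization. miR-34a had 201 to 575 counts in normal and 176 to 457 in tumor libraries, miR-34b 108 to 387 and 26 to 100, and miR-34c 349 to 935 and 113 to 350. All members were thus well above that floor in all 24 libraries, and among the 237 tested miRNAs they stood near the middle of the order of mean level, from rank 118 to rank 140 in normal glands and from rank 116 to rank 158 in tumors. Over the 4 weeks together, 38.8% of all tested miRNAs were called higher and 46.8% lower in tumors by edgeR. In the lists of cell type markers, 8 of 10 epithelial miRNAs were higher and 1 was lower. All 5 stromal miRNAs, endothelial miR-126, all 3 erythroid miRNAs and all 3 tested skeletal muscle miRNAs were lower, as was 1 of 3 tested leukocyte miRNAs. In bulk samples, fewer cells of a type and less RNA per cell cannot be told apart.

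miR-34a was over-expressed in tumors while miR-34b and miR-34c were under-expressed, so that the family was split by locus. Over all weeks together, miR-34a was 1.65-fold higher in tumors, miR-34b was 50.2% lower and miR-34c was 33.2% lower. The sum of the 3 members was 357 ± 72.2 CPM in normal glands and 337 ± 78.7 CPM in tumors (SD, n = 12 each), 2 values closer to each other than the spread of either group. CPM values here are normalized with TMM.

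miR-34a, the member with its own gene, was first compared week by week. At week 6 it stood at 95.0, 79.6 and 122 CPM in normal replicates 1, 2 and 3 and at 136, 151 and 112 CPM in the tumor replicates. At week 8 the normal values were 75.3, 102 and 139 CPM and the tumor values 145, 257 and 133 CPM. At both weeks the highest normal library was above the lowest tumor library, so the groups overlapped. Values at week 10 were 129, 137 and 109 CPM in normal and 166, 159.7 and 209.6 CPM in tumor libraries. The late carcinoma libraries of week 12 had 179, 277 and 249 CPM, against 90.7, 91.0 and 131 CPM in normal glands. All 3 tumor libraries lay above all 3 normal libraries at weeks 10 and 12, as did those of 36.3% and 33.3% of the tested miRNAs. The log2 fold change of miR-34a, tumor over normal, was 0.43 ± 0.25 (SE), 0.73 ± 0.36, 0.50 ± 0.22 and 1.15 ± 0.29 at weeks 6, 8, 10 and 12. It passed the threshold only at week 12, when 29.1% of the tested miRNAs were called higher (adjusted p = 0.0158, edgeR quasi-likelihood test with Benjamini-Hochberg adjustment over all tested miRNAs). At weeks 6, 8 and 10 the adjusted p of the same edgeR test was 0.174, 0.136 and 0.0824. The week 12 call was lost without tumor replicate 3 (adjusted p = 0.0509, edgeR).

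**Figure D1:**
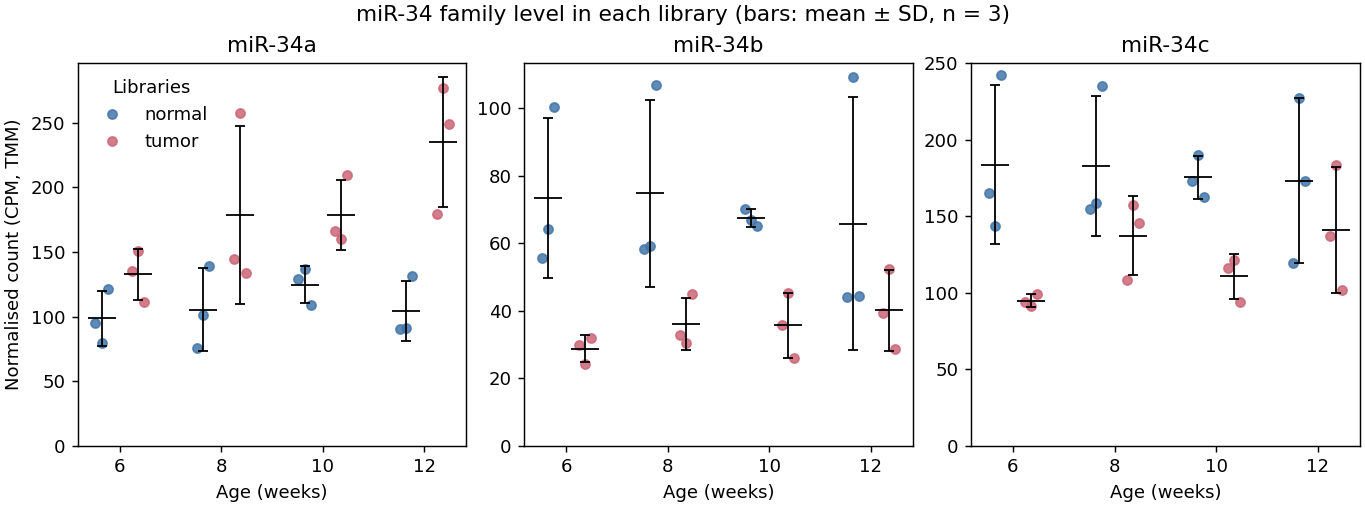
Normalised counts (CPM after TMM normalization, linear axis from 0) of miR-34a, miR-34b and miR-34c against age in weeks, with 1 point per library, normal libraries in blue and tumor libraries in red, and bars for the mean ± SD of 3 libraries. The tumor mean of miR-34a lies above the normal mean at each week (235 against 104 CPM at week 12), and those of miR-34b (28.7 against 73.4 CPM at week 6) and miR-34c (94.8 against 184 CPM at week 6) lie below it.

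miR-34b, a member of the cluster on chromosome 9, was under-expressed in tumors. Normal replicates 1, 2 and 3 of week 6 had 55.7, 64.2 and 100.3 CPM and the tumor replicates 29.9, 24.2 and 32.0 CPM. For week 8 the values were 58.2, 59.3 and 107 CPM in normal and 32.8, 30.6 and 45.0 CPM in tumor libraries. At week 10 they were 70.3, 67.0 and 65.1 CPM in normal and 35.8, 45.4 and 26.1 CPM in tumor libraries. All tumor libraries lay below all normal libraries at these 3 weeks, as was so for 34.6%, 19.8% and 31.6% of the tested miRNAs. At week 12 the normal replicates had 44.1, 109 and 44.4 CPM and the tumor replicates 39.2, 52.5 and 28.7 CPM. Here the groups overlapped, since tumor replicate 2 exceeded normal replicates 1 and 3. The log2 fold change was -1.35 ± 0.29 (SE), -1.06 ± 0.35, -0.93 ± 0.25 and -0.70 ± 0.40 at weeks 6, 8, 10 and 12. The first 3 passed the threshold (edgeR adjusted p = 0.00846, 0.0473 and 0.0168), at weeks when 29.5%, 13.5% and 27.4% of the tested miRNAs were called lower, and week 12 did not (edgeR adjusted p = 0.185). Removing 1 library ended the call at week 6 for tumor replicate 2 (adjusted p = 0.0511, edgeR), at week 8 for any of the 6 libraries (edgeR adjusted p from 0.0522 to 0.160) and at week 10 for tumor replicate 1 (adjusted p = 0.0527, edgeR) or tumor replicate 3 (adjusted p = 0.0557, edgeR). With the replicate number as a block, 131 miRNAs rather than 84 were called at week 8, and miR-34b was among them (adjusted p = 0.00333, edgeR).

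miR-34c, made from the same primary transcript as miR-34b, was also under-expressed in tumors. In week 6 libraries it stood at 165, 143 and 242 CPM in normal and at 93.7, 91.2 and 99.4 CPM in tumor replicates 1, 2 and 3. Week 10 gave 173, 190.2 and 162 CPM in normal and 116, 122 and 93.9 CPM in tumor libraries. At these 2 weeks all tumor libraries lay below all normal libraries, as did those of 34.6% and 31.6% of the tested miRNAs. Week 8 gave 154, 159 and 235 CPM in normal and 108, 158 and 146 CPM in tumor libraries. The values of week 12 were 119, 227 and 173 CPM in normal and 137, 184 and 102 CPM in tumor libraries. Tumor replicate 2 of week 8 lay above normal replicate 1, and at week 12 tumor replicates 1 and 2 did the same. The log2 fold change was -0.95 ± 0.26 (SE), -0.45 ± 0.30, -0.68 ± 0.21 and -0.30 ± 0.32 at weeks 6, 8, 10 and 12. Weeks 6 and 10 passed the threshold (edgeR adjusted p = 0.0183 and 0.0298), when 29.5% and 27.4% of the tested miRNAs were called lower, and weeks 8 and 12 did not (edgeR adjusted p = 0.257 and 0.466). The call of week 6 was lost without any 1 of the 3 tumor libraries (edgeR adjusted p = 0.0654, 0.0869 and 0.0566 without replicates 1, 2 and 3). The call of week 10 was lost without any 1 library other than normal replicate 3 (edgeR adjusted p from 0.0577 to 0.0987).

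The mean of the 4 weekly differences was tested in 1 fit of all 24 libraries. The log2 fold change was 0.72 ± 0.14 (SE) for miR-34a, with a 95% interval from 0.43 to 1.01 and an adjusted p of 0.000111 by edgeR. For miR-34b it was -1.01 ± 0.18, with an interval from -1.38 to -0.63 and an adjusted p of 4.27e-05 by edgeR. For miR-34c it was -0.58 ± 0.13, with an interval from -0.86 to -0.30 and an adjusted p of 0.000544 by edgeR. In this fit 85.7% of the tested miRNAs were called, 38.8% higher and 46.8% lower, and the median log2 fold change of all tested miRNAs was -0.15. A call here is therefore no rare event, and the members are described by their sign and size. Ordered from the lowest log2 fold change, miR-34b was at position 46, miR-34c at 87 and miR-34a at 167 of 237. All 3 calls held whichever of the 24 libraries was removed, with log2 fold changes from 0.57 to 0.78 for miR-34a, from -1.13 to -0.92 for miR-34b and from -0.71 to -0.53 for miR-34c.

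**Figure D2:**
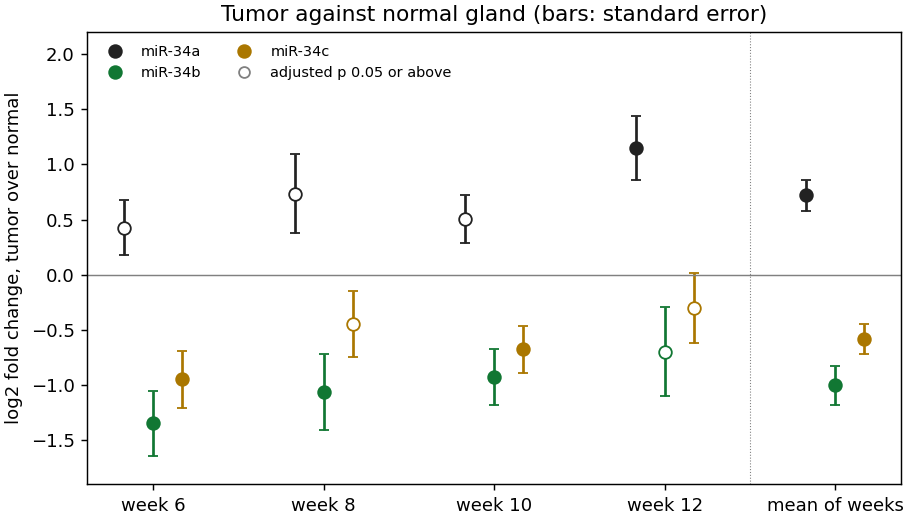
log2 fold change of each member, tumor over normal, at each week and as the mean of the 4 weeks, with bars for 1 standard error and open points where the edgeR adjusted p was 0.05 or above. miR-34a stays above 0 at each week (0.43 to 1.15), and miR-34b (-1.35 to -0.70) and miR-34c (-0.95 to -0.30) stay below 0.

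Single libraries show the same order of the members. Of the 12 tumor libraries, 9 had more miR-34a than any normal library of any week, 9 had less miR-34b and 7 had less miR-34c. Such counts were not made for all tested miRNAs, 85.7% of which were called in the fit of all libraries. miR-34a ranged from 75.3 to 139 CPM in normal libraries (median 105) and from 112 to 277 CPM in tumor libraries (median 163). miR-34b ranged from 44.1 to 109 CPM (median 64.6) and from 24.2 to 52.5 CPM (median 32.4), and miR-34c from 119 to 242 CPM (median 169) and from 91.2 to 184 CPM (median 112). The order from the highest was miR-34c, miR-34a, miR-34b in 11 of 12 normal libraries and miR-34a, miR-34c, miR-34b in 11 of 12 tumor libraries. Mature miRNAs are of nearly equal length, so these CPM levels need no correction for length, although the ligation of adaptors to different miRNAs is known to differ in efficiency.

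The ratio of miR-34a to the sum of miR-34b and miR-34c within a library does not depend on how libraries are scaled. In normal libraries it ranged from 0.271 to 0.605 and in tumor libraries from 0.700 to 1.90. No tumor library thus overlapped with a normal library of any week. In the fit of all libraries, 38.8% of the tested miRNAs were called higher and 46.8% lower. How often the ratio of a higher to a lower miRNA separates libraries in this way was not counted. The mean log2 ratio was -1.19 ± 0.33 in normal and 0.19 ± 0.41 in tumor libraries (SD, n = 12 each), a difference of 1.39 or 2.62-fold. The exact permutation test, two-sided and with labels exchanged within weeks, gave p = 1.25e-05, the smallest that its 160000 splits allow. By week the difference was 1.46, 1.29, 1.25 and 1.55 on the log2 scale at weeks 6, 8, 10 and 12. With 3 libraries against 3, the exact permutation test cannot go below p = 0.1, and it gave p = 0.1 at each week. Leaving out any 1 library moved the difference over all weeks to between 1.30 and 1.45.

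**Figure D3:**
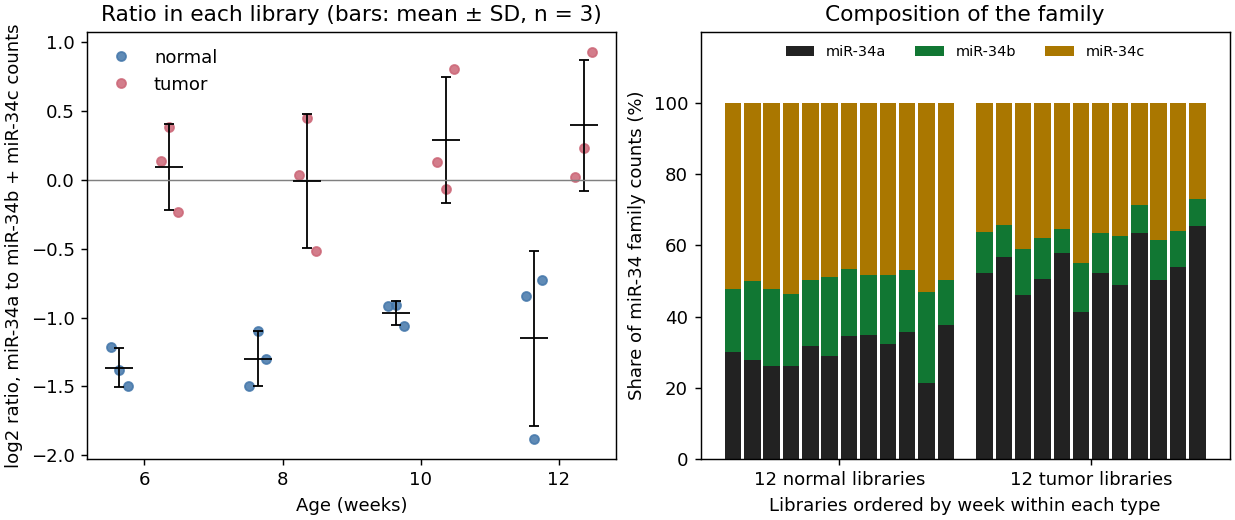
Left, log2 ratio of miR-34a counts to the summed counts of miR-34b and miR-34c (0.5 added to each) against age in weeks, 1 point per library with bars for the mean ± SD of 3. Right, share (%) of each member in the counts of the family, 1 bar per library. Every tumor library lies above every normal library on the left, and miR-34a makes up 41.2% to 65.6% of the family in tumors against 21.3% to 37.7% in normal glands.

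As a share of the family's counts, miR-34a made up 30.6% ± 4.78 in normal and 53.3% ± 6.93 in tumor libraries (SD, n = 12 each). miR-34b went from 19.5% ± 3.28 to 10.7% ± 2.40 and miR-34c from 50.0% ± 2.37 to 36.1% ± 4.87. By week, the share of miR-34a was 28.0%, 28.9%, 33.9% and 31.6% in normal glands and 51.6%, 49.9%, 54.9% and 56.7% in tumors at weeks 6, 8, 10 and 12. The lowest share of miR-34a, 21.3%, was in normal replicate 2 of week 12, the library with the most miR-34b, and the highest, 65.6%, in tumor replicate 3 of week 12.

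The libraries were sequenced on 2 lanes, 12 on each, and libraries with the same week and replicate number shared a lane. The log2 ratio differed between tumor and normal libraries by 1.25 on lane 1 and by 1.32 on lane 2, as means over the weeks. The difference in mean log2 CPM was 0.80 on lane 1 and 0.41 on lane 2 for miR-34a, -0.78 and -1.15 for miR-34b, and -0.34 and -0.80 for miR-34c. The signs of these means over the weeks were thus the same on both lanes for the ratio and for each member, while the sizes differed. Weeks 10 and 12 on lane 1 and weeks 6 and 8 on lane 2 had only 1 library of each kind. On lane 2, miR-34a was lower in the tumor library at week 6 (112 against 122 CPM) and week 8 (133 against 139 CPM). On lane 1, miR-34c was higher in the tumor library at week 12 (137 against 119 CPM). The other weeks on each lane had the sign of the mean for each member.

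Change with age and stage was compared within each genotype. In normal glands, week 12 against week 6 gave log2 differences of 0.08, -0.16 and -0.09 for miR-34a, miR-34b and miR-34c, none of which passed the threshold (edgeR adjusted p = 0.884, 0.801 and 0.876), where 21.1% of the tested miRNAs were called. The sign of these small differences changed for each member in some of the fits without 1 library, by at most 0.18 to the other side. In tumors the log2 differences were 0.82 ± 0.28 (SE), 0.48 ± 0.36 and 0.57 ± 0.27, and none passed either (edgeR adjusted p = 0.0686, 0.393 and 0.183), where 7.59% of the tested miRNAs (18) were called. That number was 0 to 30 when 1 library was left out, with 0 without tumor replicate 1 or 3 of week 6, 2 without tumor replicate 2 or 3 of week 12, 11 without tumor replicate 2 of week 6 and 30 without normal replicate 2 of week 12. The 95% interval of the tumor difference was 0.24 to 1.41 for miR-34a, -0.27 to 1.23 for miR-34b and 0.01 to 1.13 for miR-34c. Means of miR-34a in tumors were 132.7 ± 19.8, 178 ± 68.6, 179 ± 27.1 and 235 ± 50.4 CPM (SD, n = 3) at weeks 6, 8, 10 and 12, and neighbouring weeks did not differ by more than their combined spread. For miR-34a in tumors the call depended on single libraries, since it was gained in 6 of 24 fits that left 1 out (edgeR adjusted p from 0.0216 to 0.0465 in these), for example without tumor replicate 1 of week 12, where the log2 difference was 1.06 (adjusted p = 0.0412, edgeR).

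Whether the tumor-normal difference itself varied over the weeks was tested with the 3 interaction contrasts. No member passed (edgeR adjusted p = 0.938 for miR-34a, 0.971 for miR-34b and 0.938 for miR-34c). Of all 237 tested miRNAs, 0 passed in edgeR and in the likelihood-ratio test of DESeq2, and 9 in edgeR and 15 in DESeq2 had an unadjusted p under 0.05. A call at 1 week and not at another was therefore not shown to be a difference between weeks.

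miR-34b and miR-34c varied together among libraries of the same kind. Pearson's r of their log2 CPM was 0.86 over the 12 normal libraries (permutation test, p = 0.00071, adjusted p = 0.00426 over 6 relations) with a Spearman's rho of 0.77 (permutation test, adjusted p = 0.0145). Over the 12 tumor libraries r was 0.78 (permutation test, p = 0.0032, adjusted p = 0.0096) and rho was 0.79 (permutation test, adjusted p = 0.0145). Without the 2 libraries farthest from the median of miR-34b, r was 0.76 and 0.71. Since reads of these 2 miRNAs differ at few bases, how ambiguous reads were assigned can enter this relation. A shared shift between the sequencing lanes can enter it too, since the lane was not taken out. The normal libraries with the most miR-34b (109, 107 and 100.3 CPM) were all on lane 2, as was that with 44.4 CPM, near the lowest. The parts of read assignment and of the lanes were not tested.

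For miR-34a and miR-34b no correlation passed the threshold. Pearson's r was 0.25 in normal and 0.09 in tumor libraries (permutation test, adjusted p = 0.521 and 0.777), with Spearman's rho of 0.38 and 0.03 (permutation test, adjusted p = 0.261 and 0.920). For miR-34a and miR-34c, r was 0.54 in normal and 0.49 in tumor libraries (permutation test, adjusted p = 0.135 and 0.160), and rho was 0.71 and 0.44 (permutation test, adjusted p = 0.0258 and 0.229). The rank correlation in normal libraries thus passed where Pearson's r did not. Without the 2 libraries farthest from the median of miR-34a, r with miR-34c was 0.43 in normal and -0.07 in tumor libraries, so the tumor value rests on those libraries. The sequencing lane was not taken out of these correlations either. Its part in them and the difference between correlations were not tested.

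**Figure D4:**
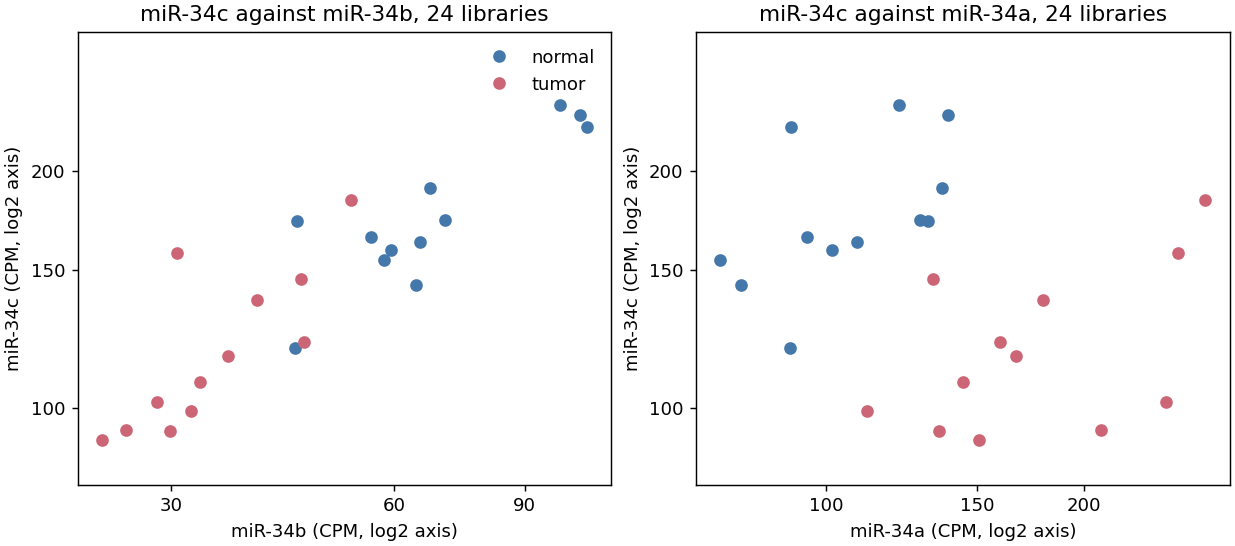
Level of miR-34c against miR-34b (left) and against miR-34a (right) in 24 libraries, in CPM on log2 axes, normal libraries in blue and tumor libraries in red. On the left, miR-34c is higher where miR-34b is higher within each kind of library (r = 0.86 in normal and 0.78 in tumor libraries). On the right, most tumor libraries lie at higher miR-34a and lower miR-34c than most normal ones.

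Within the cluster, miR-34b was the member with the larger log2 fold change at each week. The ratio of miR-34b to miR-34c counts was 0.389 ± 0.0598 in normal libraries, from 0.257 to 0.480, and 0.294 ± 0.0421 in tumor libraries, from 0.194 to 0.373 (SD, n = 12 each). These 2 ranges overlapped. This ratio was looked at after its values were seen and is given without a test.

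The miRNAs whose profile over the 8 group means was most like that of each member were ranked by Pearson's r of log2 CPM against the other 236 tested miRNAs, as a description of 8 points that differ mainly between tumor and normal. For miR-34a they were miR-744 (0.97), miR-425 (0.96), miR-297a (0.95), miR-467e (0.95) and miR-467a (0.95), and miR-34b (-0.71) and miR-34c (-0.55) were at ranks 163 and 131. For miR-34b they were miR-511 (0.96), miR-34c (0.95), miR-1839 (0.95), let-7a (0.94) and miR-195 (0.93). For miR-34c they were miR-34b (0.95), miR-511 (0.95), miR-1839 (0.92), let-7e (0.90) and miR-195 (0.89). The cluster members thus stood at rank 2 and rank 1 for each other. In the deviations of the 24 libraries from their group means, each cluster member was at rank 1 for the other (r = 0.82). These deviations leave out the difference between tumor and normal, but not any difference between the sequencing lanes. In the same deviations miR-34a had r = -0.00 with miR-34b and r = 0.41 with miR-34c, which was at rank 26 for it, so that the negative values over the group means did not recur there. Its closest miRNAs over the group means had deviation r of 0.36 (miR-744), 0.33 (miR-425), -0.18 (miR-297a), -0.17 (miR-467e) and -0.29 (miR-467a).

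The miRNAs with the same seed outside the family were at or near the floor. miR-449a had 66 counts in the 12 normal libraries together and 23 in the 12 tumor libraries, miR-449c had 16 and 4, and miR-449b had 0 counts in all 24. None passed the filter on low counts, so no test was made. The summed level of these 3, which also serve as the marker list of multiciliated epithelium, was 0.257 to 6.89 CPM in normal and 0 to 2.96 CPM in tumor libraries, against 254 to 481 CPM and 243 to 513 CPM for the summed miR-34 family.

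Other miRNAs described as raised by p53, at the level of transcription or of processing, were taken from a list of 12, of which 11 were in the table and all 11 were tested. Over the 4 weeks together 3 were higher, 7 were lower and 1 did not pass the edgeR test, beside 38.8% higher and 46.8% lower among all tested miRNAs. The median log2 fold change was -0.53 against -0.15 for all. miR-200c (2.15) and miR-141 (1.66), which maintain the epithelial state by repressing Zeb1 and Zeb2, were higher, as was miR-192 (0.36). The lower ones were miR-215 (-1.70), miR-194 (-0.36), miR-107 (-0.55), miR-16 (-0.53), miR-22 (-1.15), miR-143 (-1.22) and miR-145 (-1.61), the last pair known as miRNAs of smooth muscle and fibroblasts. miR-15a, at -0.12, did not pass (adjusted p = 0.177, edgeR). miR-200c and miR-141 are also in the epithelial marker list, and miR-143 and miR-145 in the stromal list. Some of the 11, such as miR-143 and miR-145, lie in a shared cluster, so the counts are not of independent members. By week the counts of higher and lower were 3 and 3, 2 and 3, 3 and 5, and 2 and 4 of 11 at weeks 6, 8, 10 and 12, when 29.1% and 29.5%, 21.9% and 13.5%, 32.9% and 27.4%, and 29.1% and 21.5% of all tested miRNAs were called higher and lower.

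The miRNAs described as repressed by p53 were the 6 of the miR-17-92 cluster, which acts as an oncogene and is raised by Myc. All 6 were higher over the 4 weeks together, with a median log2 fold change of 1.30 and values from 0.60 for miR-19b to 1.95 for miR-18a. At weeks 6, 8, 10 and 12, 5, 3, 6 and 6 of the 6 were called higher, and none lower, beside 29.1%, 21.9%, 32.9% and 29.1% of all tested miRNAs called higher at these weeks and 38.8% over the weeks together. As members of 1 cluster, these 6 are not independent of each other.

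**Figure D5:**
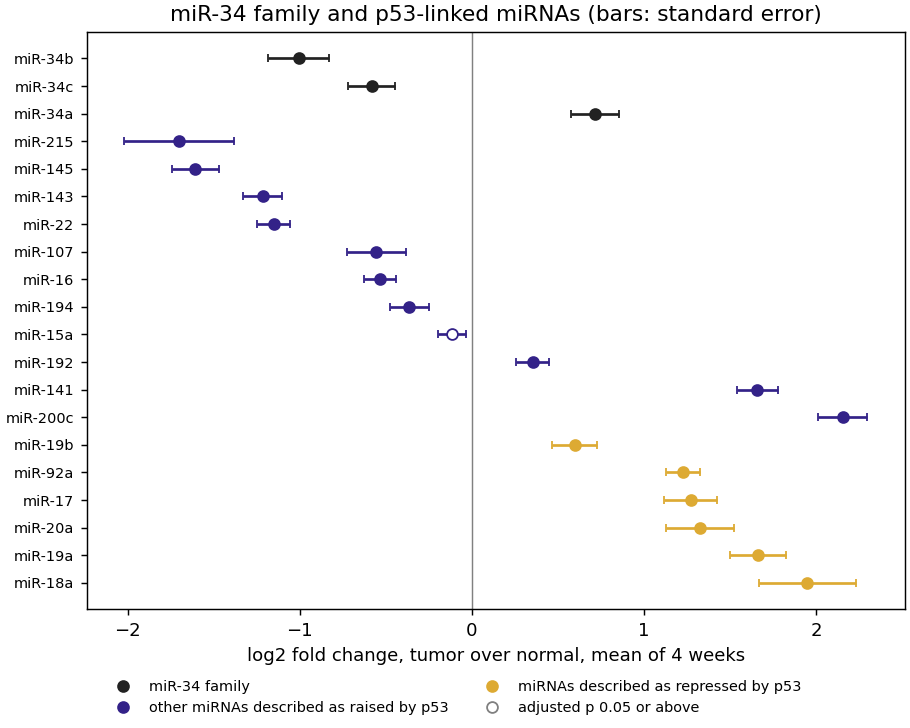
log2 fold change, tumor over normal, as the mean of 4 weeks, for the miR-34 family (black), 11 other miRNAs described as raised by p53 (violet) and 6 described as repressed by it (yellow), with bars for 1 standard error and an open point where the edgeR adjusted p was 0.05 or above. The miRNAs described as raised by p53 spread over both signs, from -1.70 for miR-215 to 2.15 for miR-200c, and those described as repressed all lie above 0, from 0.60 to 1.95.

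Cell type markers moved with these comparisons. The summed level of the 10 epithelial miRNAs was 15326 to 30649 CPM in normal and 57009 to 98236 CPM in tumor libraries, with a median log2 fold change of 2.03 over the 4 weeks. That of the 5 stromal miRNAs was 158602 to 276054 CPM in normal and 70027 to 136935 CPM in tumor libraries, with a median of -1.22. Most of this sum was miR-143, with a mean of 199589 CPM in normal and 85516 CPM in tumor libraries. Neither sum overlapped between normal and tumor libraries. Endothelial miR-126 (20497 to 37462 CPM and 6568 to 18252 CPM) did not overlap either and had a log2 fold change of -1.25. How many of all tested miRNAs show no overlap across all libraries of both kinds was not counted. Calls in the next lists stand beside 46.8% of all tested miRNAs called lower in the same edgeR fit. The 3 erythroid miRNAs, all lower, summed to 7797 to 34555 CPM in normal and 2060 to 13679 CPM in tumor libraries. Of 4 leukocyte miRNAs 3 were tested and 1 was lower, with sums of 1681 to 3241 CPM and 1198 to 1868 CPM. Of 4 skeletal muscle miRNAs 3 were tested and all 3 were lower, with sums from 89.0 to 89335 CPM in normal and from 39.9 to 18078 CPM in tumor libraries, a range within normal libraries far wider than the difference between the groups. The defining markers of epithelium, stroma and endothelium were present in both kinds of library, and the part of tissue composition in the levels of miR-34a, miR-34b and miR-34c was not tested.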

How the data were processed

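Small RNA libraries of 12 tumor and 12 normal samples, 3 mice per group, were used. The authors removed barcode and adaptor, aligned reads of mature miRNA length with Bowtie and deposited raw counts of reads per miRNA, both arms under 1 name. The paper names mm10 and the labels mm9. Mismatch and multiple-alignment settings are not given in the sources used here. No normalization was applied before deposit.

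Tumor and normal libraries were compared with edgeR 4.0.16 (R 4.3.3): TMM, filterByExpr over the 8 groups, quasi-likelihood test, Benjamini-Hochberg over 237 miRNAs, threshold 0.05. Weekly fits used 6 libraries, and the mean of weeks, age and interaction contrasts used all 24. The standard error is the log2 fold change divided by the root of F. Ratios had 0.5 added to each count and were tested by exact permutation (numpy 2.4.6), and correlations used log2 CPM (prior count 2) and 100000 permutations (scipy 1.17.1). Alternatives were DESeq2 1.42.0 size factors, Wald test and, for the interaction, likelihood-ratio test (added after seeing the data), library sizes only, no filter, 1 fit of all libraries, the sequencing lane or the replicate number as a block, other pseudocounts, each member of the cluster alone, and each library left out. Same-numbered tumor and normal libraries, whose numbers come from the labels and which share a lane, were compared in their deviations from group means. They correlated by 0.196 to 0.816 at weeks 6, 8 and 10 and by 0.0312 to 0.424 at week 12. Of 12 tumor libraries, 9 correlated best with their own number. The main tests did not pair libraries, and the alternatives with the replicate number as a block did so at every week. Floors of 3 counts cover counting error only. The procedure was tested on simulated data. The members, lists and tests were chosen with earlier results of these data known, and the members and the listed miRNAs are named. mRNA sequencing was not analysed here.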

Additional observations from a re-analysis of the deposited data

How the results depend on the processing

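Over the alternatives that kept all libraries, 239 values kept their direction and their side of the threshold (for counts, within 1.5 times) and 12 did not. The first held every value of the mean over the weeks, of the interaction and of the ratio of miR-34a to miR-34b and miR-34c, which ranged from 1.28 to 1.68 on the log2 scale over all weeks. The call of miR-34b at week 8 was lost with library sizes only (-1.18, edgeR adjusted p = 0.0740) and without the filter (-1.06, edgeR adjusted p = 0.0611), in a range of adjusted p from 0.00333 to 0.0740 over its alternatives. That of miR-34c at week 10 was lost without the filter (-0.67, edgeR adjusted p = 0.0537), in a range from 0.0110 to 0.0537. miR-34a was called at week 8 in 1 fit of all 24 libraries (0.76, edgeR adjusted p = 0.0289), in a range from 0.0289 to 0.267, and in tumors between weeks 12 and 6 with DESeq2 size factors (0.96, edgeR adjusted p = 0.0367) and the Wald test (0.96, DESeq2 adjusted p = 0.0154), in a range from 0.0154 to 0.127. With library sizes only, its difference between weeks 12 and 6 in normal glands turned to -0.23, and its correlation with miR-34c in normal libraries rose to 0.70 (permutation test, adjusted p = 0.0233, in a range from 0.0233 to 0.134). As deviations from the week mean, its correlation with miR-34b in tumors turned to -0.42. For tumors between weeks 12 and 6, the number of miRNAs called was 18, against 10 without the filter, which tests more miRNAs, and 30 with the Wald test. The cause of the other changes was not tested.

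With the replicate number as a block, week 8 gave 131 called miRNAs against 84, no other count of calls moved by over 1.5 times, and no call of a member changed. The ratio over all weeks gave p = 0.000488 in the exact permutation test within same-numbered pairs, the smallest value that this test allows.

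Leaving out 1 library gave between 78 and 150 called miRNAs for week 6 (139 with all), between 50 and 81 for week 8, between 103 and 144 for week 10, between 74 and 120 for week 12, 32 to 76 between weeks 12 and 6 in normal glands (50 with all), 0 to 30 in tumors and 0 to 1 for the interaction. The count at week 12 was 74 without tumor replicate 3. The log2 fold change of miR-34a at week 12 lay between 1.02 and 1.35. Its difference between weeks 12 and 6 lay between -0.07 (-0.0694 without normal replicate 3 of week 12) and 0.41 for normal glands and between 0.69 and 1.06 for tumors. The log2 fold change of miR-34b lay between -1.51 and -1.06 (week 6), -1.23 and -0.69 (week 8), -1.13 and -0.74 (week 10) or -0.93 and -0.19 (week 12), and its week difference in normal glands between -0.50 and 0.15. That of miR-34c lay between -1.10 and -0.70 (week 6), -0.81 and -0.56 (week 10) or -0.51 and -0.11 (week 12), and its week difference in normal glands between -0.16 and 0.18. The fits at 2 libraries against 3 have few residual degrees of freedom, and miR-34b, with as few as 26 counts in a tumor library, has the widest counting error of the members.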
